A study of Mus musculus with 12 samples.

Results

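Kidney lineage genes were read in RNA of mouse embryonic fibroblasts (MEFs) with and without Sirt3, the mitochondrial deacetylase. The 9 genes were chosen by symbol, with their levels in these libraries already known, out of 34866 genes in the deposited table: the transcription factors Pax2, Pax8, Lhx1 and Gata3, the receptor Ret, the transcriptional cofactor and enzyme Pcbd1, and the tubule genes Havcr1, Cdh16 and Pkhd1. All 9 symbols matched 1 identifier each. Their levels are therefore given as a description, without a test.

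The 12 libraries came from 4 groups of 3, WT and KO cells of each sex. The WT cells came from 129S1/SvImJ embryos (Sirt3+/+) and the KO cells from Sirt3-/- embryos, all 13 days old, and cells of every group carried an SV40 T-antigen plasmid, were at passage 6 and were lysed 48 h after seeding. The methods describe wells seeded in triplicate and name no number of lines per group, so the spread between the 3 libraries of a group, and with it each p-value, may be technical. If a group is 1 line, genotype and sex cannot be told apart from the line. Values are TPM, a unit in which each library sums to the same total, and they are scaled for transcript length, so levels of different genes can be set beside each other. TPM carry no read totals, and the depth behind a low value is unknown.

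Sirt3 itself ran from 6.59 to 9.07 TPM in the male WT, 8.88 to 11.0 in the male KO, 7.40 to 8.69 in the female WT and 7.57 to 9.06 in the female KO libraries. Labelled KO libraries thus held no less Sirt3 mRNA than WT, and TPM summed per gene cannot tell a whole from a shortened transcript. No library stood apart in the number of genes at 1 TPM or more, which ran from 12256 to 12637.

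The kidney arises from intermediate mesoderm, where Pax2 and Pax8, closely related paired-box factors with overlapping roles, start the nephric lineage. Lhx1 and Gata3 act with them in the nephric duct, and Ret receives the Gdnf signal by which the ureteric bud grows and branches. Pcbd1 is a small protein with a role in the pterin cycle and another as a cofactor of transcription factors, and Havcr1, Cdh16 and Pkhd1 are membrane proteins of tubule cells. Pax8, Gata3 and Ret also work in other tissues, such as the thyroid, the ear and the neural crest, and none of the 9 genes is a common fibroblast marker.

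Male KO MEFs carried RNA of 6 of these genes at levels that no library of the other groups reached. Pax8, Pcbd1, Havcr1, Pax2, Cdh16 and Pkhd1 together summed to between 68.1 and 71.6 TPM in the male KO libraries. The sum was 0.243 to 1.03 TPM in male WT, 0.920 to 2.33 in female WT and 0.0588 to 2.82 in female KO libraries. Ret and Gata3 followed other patterns, and Lhx1 stayed under 1 TPM in all 12 libraries. In bulk RNA, more cells of a type and more RNA per cell cannot be told apart.

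Promoter sequences are shown for 4 of the 6 genes whose RNA was found in the same libraries, with 1 window for each. RefSeq windows of GRCm38.p6, from 250 bases before to 50 bases after a transcript's start, were at hand for 7 of the 9 genes (11 windows). They were searched on both strands for a motif of Pax proteins, GCGTGAC, and for the TATA motif TATAAA, which do not overlap. In the windows printed here, 5′ to 3′ along the gene's strand, capitals mark TATAAA on either strand and everything else is in lower case.
Pcbd1, chr10:61089081-61089380, plus strand: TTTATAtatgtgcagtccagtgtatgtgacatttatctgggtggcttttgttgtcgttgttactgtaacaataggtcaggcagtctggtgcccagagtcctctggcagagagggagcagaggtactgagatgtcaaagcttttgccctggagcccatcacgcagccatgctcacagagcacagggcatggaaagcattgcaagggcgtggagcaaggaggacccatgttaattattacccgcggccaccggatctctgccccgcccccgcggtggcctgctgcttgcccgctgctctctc
Pkhd1, chr1:20618008-20618307, minus strand: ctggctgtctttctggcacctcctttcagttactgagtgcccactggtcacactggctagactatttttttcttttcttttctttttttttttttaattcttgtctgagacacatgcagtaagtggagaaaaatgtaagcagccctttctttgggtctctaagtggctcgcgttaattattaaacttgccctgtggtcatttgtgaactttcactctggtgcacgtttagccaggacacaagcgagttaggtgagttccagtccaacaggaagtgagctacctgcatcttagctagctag
Havcr1, chr11:46750261-46750560, plus strand: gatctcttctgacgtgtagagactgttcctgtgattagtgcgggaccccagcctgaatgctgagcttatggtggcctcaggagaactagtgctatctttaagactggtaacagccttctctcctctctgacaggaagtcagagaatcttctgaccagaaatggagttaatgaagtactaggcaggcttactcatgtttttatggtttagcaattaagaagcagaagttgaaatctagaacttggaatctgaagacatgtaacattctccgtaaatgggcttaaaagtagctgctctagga
Pax8, chr2:24475550-24475849, minus strand: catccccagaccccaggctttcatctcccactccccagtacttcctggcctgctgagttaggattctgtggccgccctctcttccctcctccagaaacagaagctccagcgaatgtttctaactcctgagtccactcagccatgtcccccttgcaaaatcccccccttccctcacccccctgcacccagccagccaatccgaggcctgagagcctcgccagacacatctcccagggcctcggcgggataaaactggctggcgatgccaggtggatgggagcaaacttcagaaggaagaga

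GCGTGAC stood in 2.09% of all 32851 windows and in none of the 11. TATAAA or its reverse complement stood in 13.6% of all windows and in 1 of the 11, that of Pcbd1, where it began at the first base, 250 before the start. The 4 windows differed in base composition. G and C made up 59.3% of the Pax8 window and 55.3% of that of Pcbd1, but 43.3% of the Havcr1 window shown and of that of Pkhd1, beside a median of 52.7% over all windows. The pair CG occurred 7 times in Pax8, 10 times in Pcbd1, 3 times in Havcr1 and 4 times in Pkhd1, beside a median of 7. All 3 windows of Havcr1 held 43.3% to 46.7% G and C and 2 to 4 CG pairs. The 3 windows of Pax2, not printed, held 54.7% to 71.7% and 7 to 30 CG pairs. These are matches of letters, and binding was not measured.

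Pax8 (chromosome 2, 24420560 to 24475599, minus strand) was the highest of the 9 in male KO cells. Its TPM were 32.3, 32.0 and 37.8 in male KO, and 0.0452, 0.0955 and 0.578 in male WT libraries. In females they were 0.160, 0 and 0.919 in WT, and 0.0588, 0.0307 and 0.340 in KO. The lowest male KO library was therefore far above the highest of the other 9, while the other 3 groups overlapped. On the log2(TPM+1) scale the mean of male KO lay 4.84 above male WT, and female KO minus female WT was -0.20, a difference within the spread of those libraries. Pax8 shared 315 of its 6161 transcript stretches of 31 bases (5.11%) with other genes, 314 of them with Gm13415, a transcript that overlaps it and was not analysed here.

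**Figure D1:**
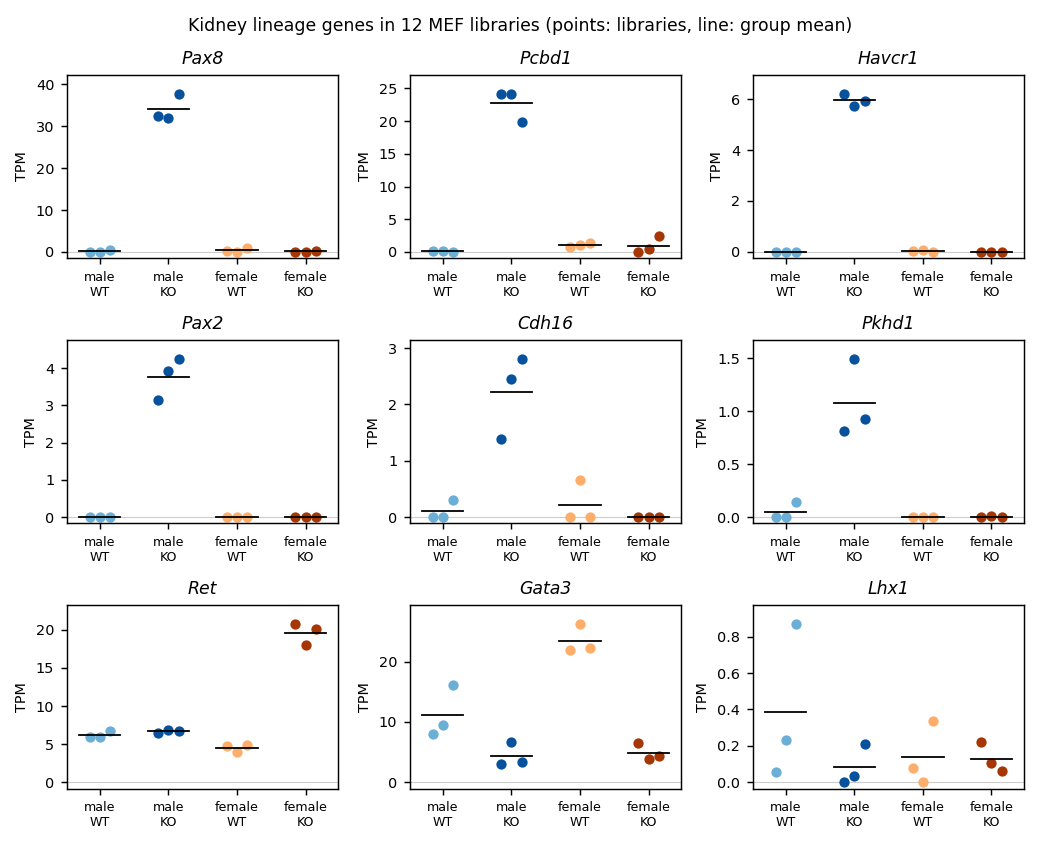
TPM of the 9 kidney lineage genes (y axes, each with its own range) by group (x axes), with a point for each library and a line at the group mean. Pax8, Pcbd1, Havcr1, Pax2, Cdh16 and Pkhd1 are highest in the 3 male KO libraries, Ret in the 3 female KO libraries and Gata3 in the 3 female WT libraries, while Lhx1 stays under 1 TPM.

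Pax2 (chromosome 19, 44756045 to 44837871), the partner of Pax8, was listed at 3.14, 3.92 and 4.26 TPM in the male KO libraries. It was listed at 0 in the other 9. In the male KO libraries Pax2 stood at 9.70% to 12.3% of the level of Pax8. No stretch of 31 bases was shared between Pax2 and Pax8 or any other gene. The other Pax genes of the table (Pax1, Pax3, Pax4, Pax5, Pax6, Pax7 and Pax9) summed to 0.253 to 0.953 TPM in male KO, 0.525 to 0.881 in male WT, 0.994 to 1.33 in female WT and 1.07 to 1.34 in female KO libraries. RNA of the family at several TPM was thus seen for Pax2 and Pax8 and for no other member.

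Lhx1 (chromosome 11, 84518284 to 84525535), a LIM homeobox factor needed for the nephric duct, did not follow Pax2 and Pax8. It was at 0, 0.0332 and 0.212 TPM in male KO libraries and at 0.0581, 0.233 and 0.869 in male WT. Female WT libraries held 0.0769, 0 and 0.336 TPM and female KO libraries 0.223, 0.107 and 0.0605. The 4 groups overlapped.

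Gata3 (chromosome 2, 9857078 to 9890034), a zinc-finger factor of the nephric duct, was lower in KO than in WT libraries of both sexes. Its TPM were 7.94, 9.53 and 16.2 in male WT and 3.03, 6.69 and 3.34 in male KO. Female WT libraries held 21.9, 26.2 and 22.2 TPM and female KO libraries 6.45, 3.87 and 4.33. The order was female WT, male WT and then the KO groups, which overlapped with each other. On the log2(TPM+1) scale, KO minus WT was -1.20 in males (means 2.36 and 3.55, SD 0.51 and 0.49) and -2.07 in females (means 2.53 and 4.61, SD 0.32 and 0.14). Gata3 overlaps 4930412O13Rik on the opposite strand and 9230102O04Rik on its own strand. 4930412O13Rik was at 2.35, 1.32 and 1.01 TPM in the female WT libraries, where Gata3 was highest, and at 0 in the other 9. 9230102O04Rik was at 1.77, 1.94 and 3.09 TPM in female WT and reached 0.374 TPM in 1 male WT library. Gata3 shared 152 of its 3966 stretches of 31 bases (3.83%) with other genes. Of these, 97 were shared with Gm13256, an antisense transcript that was not analysed here. Strand was not stated for these libraries, so reads within shared stretches cannot be told apart.

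Ret (chromosome 6, 118151745 to 118197718), the receptor tyrosine kinase for Gdnf family ligands, was highest in female KO cells. Its TPM were 20.8, 18.0 and 20.1 there, against 4.81, 3.92 and 4.90 in female WT. In males they were 5.89, 5.99 and 6.74 in WT and 6.51, 6.92 and 6.73 in KO. The male groups overlapped, and the female WT libraries lay below both. The log2(TPM+1) mean of female KO lay 1.90 above female WT (means 4.36 and 2.47, SD 0.10 and 0.15), while male KO lay 0.10 above male WT.

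Among genes of Ret signalling, Gfra1 and Spry1 rose with Ret in female KO cells, and Etv4 and Etv5 did not. Several fell in male KO cells, where Ret overlapped with male WT. Gfra1, the co-receptor that binds Gdnf, was at 28.2, 25.8 and 28.6 TPM in male WT and at 10.3, 16.3 and 19.4 in male KO libraries. In females Gfra1 was at 21.4, 18.4 and 15.6 TPM in WT and at 30.5, 33.9 and 29.0 in KO. Gfra1 fell in male KO and rose in female KO cells, and Gdnf, the ligand, fell in male KO cells, by limma at an adjusted p under 0.05. Etv4 and Etv5, transcription factors that Ret signalling induces in the ureteric bud, fell in male KO cells and did not pass in females. Spry1, a feedback inhibitor of receptor tyrosine kinase signalling, was at 15.5 TPM or more in the female KO libraries and between 5.88 and 8.25 in the other 9. Its log2 fold change was 1.09 in females (standard error 0.08, adjusted p = 0.000414, limma), and it did not pass in males (adjusted p = 0.33). Wnt11, another ureteric bud gene of the list, fell in female KO cells. Its log2 fold change was -0.95 (standard error 0.17, adjusted p = 0.017, limma).

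Pcbd1 (chromosome 10, 61089331 to 61094324), a dehydratase of the pterin cycle and a transcriptional cofactor, came next after Pax8. Its TPM were 24.2, 24.2 and 19.9 in male KO and 0.197, 0.206 and 0 in male WT libraries. Female WT libraries held 0.704, 1.10 and 1.41 TPM and female KO libraries 0, 0.375 and 2.48. Male KO lay above all others, male WT lay below female WT, and the female groups overlapped. The log2(TPM+1) mean of male KO was 4.39 above male WT. Pcbd2, the paralog of Pcbd1, was at 34.0 to 56.8 TPM in the male KO libraries and at 39.3 to 41.4 in male WT, and did not pass the test between them. Pcbd1 shared no stretch of 31 bases with another gene.

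Havcr1 (chromosome 11, 46735080 to 46779578), a membrane protein known as kidney injury molecule 1 from injured proximal tubules, was at 6.22, 5.74 and 5.94 TPM in the male KO libraries. It was listed at 0 in all male WT and all female KO libraries and at 0.0563, 0.0595 and 0 in female WT. Male KO was therefore separated from the other groups, which overlapped. Havcr1 shared 165 of its 2306 stretches of 31 bases (7.16%), of which 135 with its neighbour Timd2, whose highest level in any library was 0.325 TPM.

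Cdh16 (chromosome 8, 104601911 to 104624396) encodes kidney-specific cadherin, an adhesion protein of tubule cells. It was at 1.38, 2.45 and 2.81 TPM in male KO libraries, at 0, 0 and 0.307 in male WT and at 0, 0.656 and 0 in female WT, and it was listed at 0 in female KO. Pkhd1 (chromosome 1, 20057779 to 20618064) encodes fibrocystin, the protein altered in recessive polycystic kidney disease. It was at 0.814, 1.49 and 0.929 TPM in male KO libraries and at 0, 0 and 0.144 in male WT, was listed at 0 in female WT, and was at 0, 0.00754 and 0 in female KO. The lowest male KO library was above every other library for both genes, at levels of 4.27% to 7.66% of Pax8 for Cdh16 and 2.46% to 4.67% for Pkhd1.

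Counted over the 9 genes, 6 were above male WT in all male KO libraries, 1 (Gata3) was below, and 2 (Ret and Lhx1) overlapped. Of the 22401 genes above 0 in any library, 27.2% had no overlap between these groups, and 21.6% of the 12504 genes averaging 1 TPM or more passed the limma test (10.7% higher and 10.9% lower in KO). Between female KO and female WT 1 gene was above (Ret), 1 below (Gata3) and 7 overlapped, where 22.6% of genes had no overlap and 11.5% passed the test (5.63% higher and 5.84% lower). Between male WT and female WT 1 was above (Ret), 2 below (Gata3 and Pcbd1) and 6 overlapped, beside 22.5% and 12.8% over all genes (6.26% higher and 6.56% lower in males). Between male KO and female KO 6 were above, 1 was below (Ret) and 2 overlapped (Gata3 and Lhx1), beside 23.4% and 16.6% (8.17% higher and 8.39% lower in males). The genes were chosen for these patterns, so the counts describe the choice.

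In the male KO libraries 7 of the 9 genes reached 1 TPM in all 3, and in each of the other groups only Gata3 and Ret did. Of the 54 values that the 6 genes have outside male KO, 33 were listed at 0, and the highest was the 2.48 TPM of Pcbd1 in a female KO library. None of their 18 values in male KO was at 0. A filter at a mean of 1 TPM over the 12 libraries left Pax8, Gata3, Pcbd1, Ret and Havcr1, of which Pax8, Pcbd1 and Havcr1 passed only through male KO. Pax2, Lhx1, Cdh16 and Pkhd1 lay under it.

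Other genes of kidney development were read from a list of 75 genes in 7 roles, of which 46 averaged 1 TPM or more and were tested. Between male KO and male WT 26 of the 46 passed (56.5%, against 21.6% of all genes), 17 higher and 9 lower, with a median log2 fold change of 0.15 against -0.02 over all genes tested. Between female KO and female WT 18 passed (39.1%, against 11.5%), 12 higher and 6 lower, with a median of 0.15 against -0.02. The list was written with results of these libraries known, so these shares describe it. High shares were not particular to kidney genes. Of 22 tested genes of the marker lists used below, 13 passed in males (59.1%) and 16 in females (72.7%). Between the sexes 11 of the 22 passed in WT (50%) and 7 in KO (31.8%), and 7 passed the interaction (31.8%). Of the 46, 5 had a mean under 1 TPM without the group in which they were highest: Sall1 and Wnt4 passed the filter only through male KO, Aldh1a2 and Lrp2 only through female WT and Hoxc11 only through female KO. A test on that group is favoured by the filter, and no p-value is given for them there. The counts above and those by role include them. Without the 5 genes, an alternative chosen after seeing the data, 23 of 41 passed in males (14 higher and 9 lower) and 16 in females (11 higher and 5 lower).

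Cdh6, a cadherin of the early proximal tubule, rose most among the 46. Its TPM were 20.2, 25.2 and 21.5 in male KO and 1.55, 1.39 and 1.83 in male WT, and between 0.778 and 1.25 in the 6 female libraries. The log2 fold change in males was 3.17 (standard error 0.13, adjusted p = 1.36e-05, limma). Foxd1, a factor of the renal stroma, was at 14.7, 13.1 and 14.7 TPM in male KO and 0.778, 1.15 and 0.763 in male WT, a log2 fold change of 3.00 (standard error 0.13, adjusted p = 1.9e-05). Foxd1 also rose in female KO cells, by 0.83 (standard error 0.17, adjusted p = 0.0284), a call that was lost without any 1 of 4 of the 6 libraries. Sall1, a factor of the metanephric mesenchyme, was at 3.38 to 3.53 TPM in male KO and at 0.104 to 0.374 in male WT libraries, a difference of 1.83 on the log2(TPM+1) scale. Bmp2, a secreted growth factor, fell from 3.12, 3.47 and 2.98 TPM in male WT to 0.285, 0.288 and 0.299 in male KO, by 1.70 (standard error 0.16, adjusted p = 0.000466).

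Aqp1, the water channel of the proximal tubule, went the other way. It was at 52.7, 57.6 and 56.4 TPM in male WT and at 11.6, 12.3 and 12.6 in male KO, and the log2 fold change was -2.10 (standard error 0.07, adjusted p = 7.67e-06, limma). In females Aqp1 rose, from 18.2, 17.4 and 18.5 TPM in WT to 43.3, 38.6 and 42.0 in KO, by 1.15 (standard error 0.06, adjusted p = 0.000199). Its interaction was -3.25 (standard error 0.09, adjusted p = 2.11e-09). Aqp1 is also expressed in many other cell types.

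By role, 6 of 7 nephron formation genes passed between male KO and male WT, where 21.6% of all genes did: Wnt4, Jag1, Irx2, Cdh6 and Lhx9 rose and Bmp2 fell. Wnt4 passed the filter only through male KO, as did Sall1 of the metanephric mesenchyme, so the filter favours both calls. Differences between roles were not tested. Of 8 nephric duct and ureteric bud genes 2 rose (Sox8 and Sox9) and 3 fell (Gfra1, Etv4 and Etv5). Of 12 genes of the metanephric mesenchyme 4 rose (Osr1, Sall1, Wt1 and Hoxa11) and 2 fell (Eya1 and Gdnf). Of 7 stroma genes 4 rose (Foxd1, Foxc1, Aldh1a2 and Ecm1) and none fell. In a group of 8, made of the Pcbd1 paralog and genes of cystic kidneys, Pkd2 and Bicc1 rose and Glis2 fell. Of the tubule genes only Aqp1 and Lrp2 were tested, and of the 2 podocyte genes tested Podxl fell. All these counts by role are for males. In females, where 11.5% of all genes passed, 1 stroma gene was higher (Foxd1) and 2 were lower (Foxc1 and Aldh1a2). Of the nephron formation genes 3 were higher in female KO (Jag1, Irx1 and Irx2) and 1 was lower (Lhx9).

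Most genes of the mature nephron were near 0. A level under 1 TPM is common, since a library held 12256 to 12637 of the 34866 genes at 1 TPM or more. The share of all genes under 1 TPM in all 12 libraries was not computed. Counting developmental genes such as Sall4 and Fgf8, 24 of the 75 genes stayed under 1 TPM in all 12 libraries, male KO included. Among them were Hnf4a, a transcription factor of the proximal tubule, Umod, Slc12a1 and Slc12a3 of the distal nephron, Aqp2 and Aqp3 of the collecting duct, the proximal transporters Slc34a1, Slc22a6 and Slc22a8, and the podocyte gene Nphs1. Hnf4a, Umod, Aqp2, Slc34a1 and Slc22a6 were listed at 0 in every library, as were Wnt9b, Ros1 and Kap. Of 15 tubule genes 2, and of 4 podocyte genes 2, averaged 1 TPM or more.

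**Figure D2:**
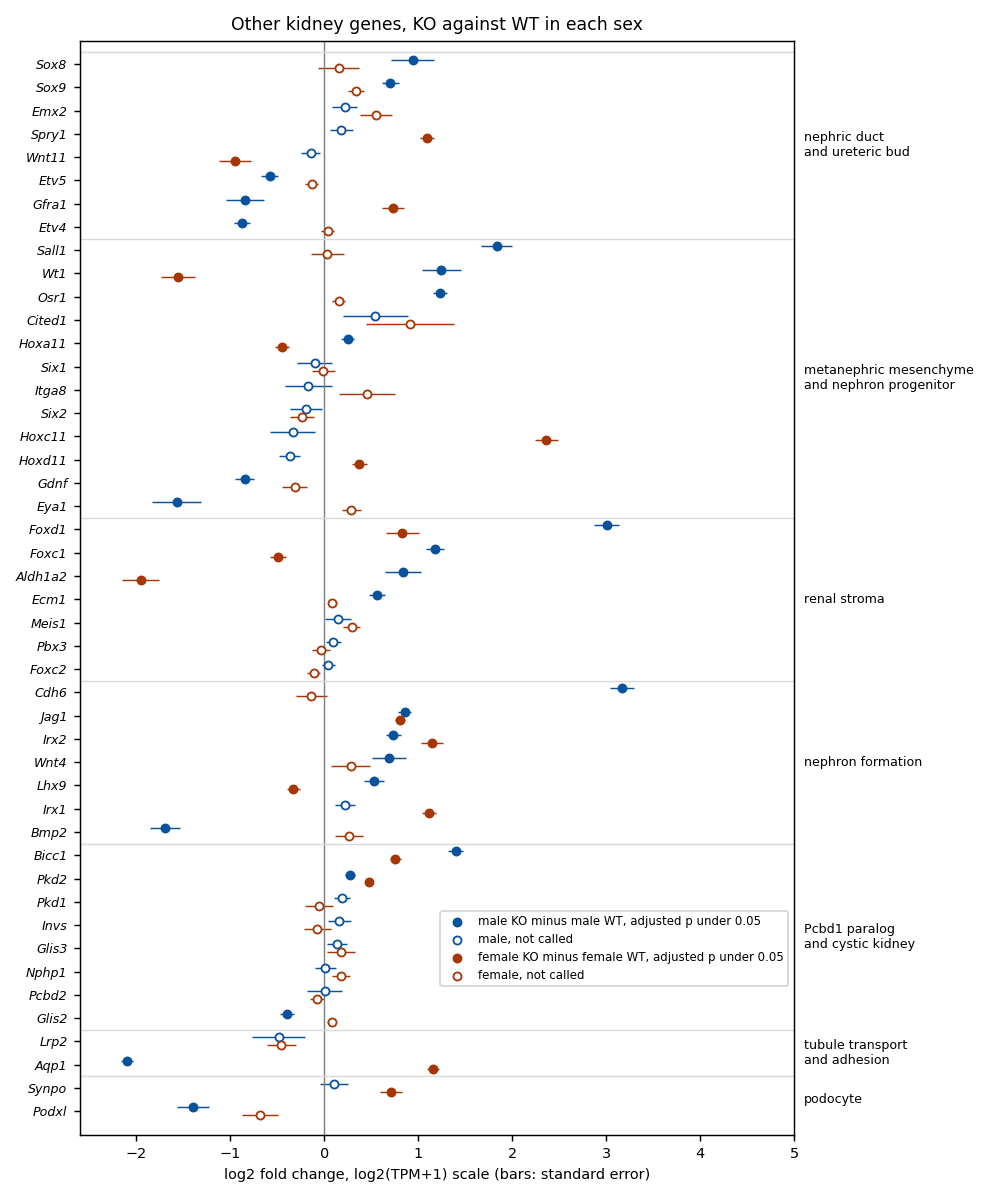
Log2 fold change on the log2(TPM+1) scale (x axis) of the 46 tested kidney genes other than the 9, in male KO against male WT (blue) and female KO against female WT (brown), grouped by role (right), with bars for the standard error and filled points for an adjusted p under 0.05 by limma, also for the 5 genes that passed the filter through 1 group. Cdh6 and Foxd1 reach 3.00 or more in males, and Aqp1, Wt1 and Aldh1a2 lie on opposite sides of 0 in the sexes.

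In both sexes 12 of these genes passed, which is 46.2% of the male and 66.7% of the female calls. Of these, 5 went the same way (Foxd1, Jag1, Irx2, Pkd2 and Bicc1, all higher in KO). The other 7 went opposite ways (Gfra1, Wt1, Hoxa11, Foxc1, Aldh1a2, Lhx9 and Aqp1). The share of all tested genes that passed in both sexes was not computed, so the 12 have no background beside them. Wt1, a factor of the mesenchyme and of podocytes, changed by 1.25 on the log2 scale in males (standard error 0.20, adjusted p = 0.00592, limma) and by -1.55 in females (standard error 0.18, adjusted p = 0.00337). Aldh1a2, which makes retinoic acid, changed by 0.84 in males (standard error 0.19, adjusted p = 0.0202). Its difference in females was -1.95, in which female WT is the group that took it past the filter (2.30 to 3.88 TPM, against 0.0459 to 0.108 in female KO). The male rise of Aldh1a2 ended at about 1 TPM (0.891 to 1.13) and was lost without any 1 of 3 of the 6 libraries. The interaction passed for 24 of the 46 genes (52.2%, against 13.0% of all genes, 6.7% higher and 6.33% lower), 12 higher and 12 lower. Without the 5 genes it passed for 21 of 41.

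In female KO cells, where Ret was highest, the largest difference was that of Hoxc11, a Hox gene of the metanephric field. It was at 1.46, 1.22 and 1.61 TPM in female WT and at 10.7, 11.2 and 12.6 in female KO libraries, a difference of 2.36 on the log2(TPM+1) scale. It was at most 0.561 TPM in any male library. Irx2, expressed in the forming nephron, rose by 1.15 in female KO (standard error 0.12, adjusted p = 0.00192).

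Between the sexes, 19 of the 46 genes passed in WT (41.3%, against 12.8% of all genes; 7 higher and 12 lower in males) and 29 in KO (63.0%, against 16.6%; 14 higher and 15 lower). Without the 5 genes they were 17 and 26 of 41. The WT comparison holds no member above 3 TPM other than Ret and Gata3. Its largest changes were those of Hoxd11 at 1.89 (standard error 0.10, adjusted p = 7.82e-05, limma), Aldh1a2 at -1.88, Aqp1 at 1.57, Lhx9 at -1.54 and Emx2 at 1.11. In KO they were those of Cdh6 at 3.62 (standard error 0.12, adjusted p = 6.72e-06, limma), Hoxc11 at -3.59, Bmp2 at -2.25, Wt1 at 1.97 and Foxd1 at 1.89. The differences of Aldh1a2 in WT and of Hoxc11 in KO involve the group that took them past the filter. These comparisons share their libraries with those between KO and WT.

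Genes with a profile like that of Pax8 were sought among 12500 others averaging 1 TPM or more, as the smallest root mean square difference in log2(TPM+1) over the 12 libraries after centring each gene on its own mean. They were Syce1 (0.565), Pcbd1 (0.646), Cdh6 (0.693), Rasl11a (0.752) and Megf6 (0.852). Pax2, Lhx1, Cdh16 and Pkhd1 average under 1 TPM, so they could not be ranked. Syce1 and Pcbd1 passed this filter only through male KO, so the filter favours genes that are high there. Syce1, which belongs to the synaptonemal complex of meiosis, was at 12.1, 13.3 and 11.3 TPM in male KO libraries, reached 0.0907 in 1 female KO library and was listed at 0 in the other 8. It lies on chromosome 7 from 140777229 to 140787852, 75.8 kb from Sirt3. Rasl11a, a small GTPase of the Ras family, was at 44.5, 45.4 and 49.8 TPM in male KO and at 2.64 to 5.87 in the other libraries. Megf6 was at 20.4, 23.8 and 23.9 TPM in male KO and at 1.17 to 2.80 in the others.

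**Figure D3:**
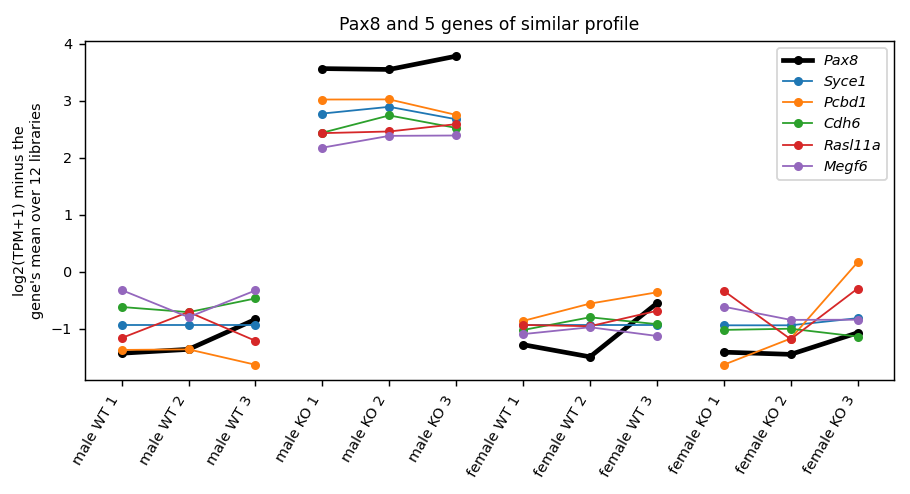
Log2(TPM+1) of Pax8 (black) and of 5 genes near to it in profile, minus each gene's mean (y axis), in the 12 libraries (x axis). All 6 lines are above 2 in the 3 male KO libraries and below 1 in the other 9.

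The order depended on the measure. With a pseudocount of 0.1 the nearest were Syce1, Havcr1, Agt, Tex11 and Cdh6, with Pcbd1 sixth. With profiles scaled to unit SD they were Syce1, Havcr1, Agt, Scpep1 and Atf5, with Cdh6 eighth and Pcbd1 at rank 41. Syce1 was the only gene among the 5 nearest under all 3 measures. Like Syce1, Havcr1, Agt and Tex11 averaged 1 TPM or more only through male KO. So did Rasl12, Cdsn and Carns1, named below.

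The genes nearest to the others, by the first of the 3 measures over the same 12 libraries, were in part those near Pax8. Syce1 and Rasl11a were near both Pax8 and Pcbd1. Agt and Tex11 were near Pax2 and Havcr1, and also near Pax8 with a pseudocount of 0.1. The first measure also depends on the size of a change, so different neighbours need not mean a different pattern. Nearest to Pax2 were Tex11 (0.14), Nrep (0.17) and Agt (0.19), and nearest to Havcr1 were Agt (0.11), Rasl12 (0.17) and Tex11 (0.18). Pcbd1 had Syce1 (0.49), Rasl11a (0.54) and Cdsn (0.57), Cdh16 had Carns1 (0.21), Bcl3 (0.22) and Wnt16 (0.26), and Pkhd1 had Arhgap29, Amot and Xylt1 (0.15 to 0.16). Agt, the precursor of angiotensin, was at 4.90, 5.05 and 6.68 TPM in male KO and at no more than 0.113 in any other library. Ret was nearest to Fbxo32 (0.21), Pdpn (0.25) and Cd34 (0.27), all highest in female KO cells. Gata3 was nearest to Bex1 (0.42), Gap43 (0.46) and Npw (0.47), which were lowest in the KO groups.

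Genes found at 1 TPM or more in all 3 libraries of a group and below 1 TPM in the other 9 numbered 37 for male KO, 25 for male WT, 12 for female WT and 16 for female KO. The 37 hold Pax2, Pax8, Havcr1 and Cdh16. At 5 TPM or more, Havcr1, Pax8 and Syce1 were among those left for male KO, and there were 1 each for male WT and female WT and 0 for female KO. At 20 TPM or more Pax8 was still among them, and no gene was left for the other groups. This is a description of levels, and Pax8 was chosen for it.

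Genes close to the 9 passed no more often than genes in general. Within 250 kb of any of the 9, the table holds 80 genes, of which 36 were tested. Between male KO and male WT 6 of the 36 passed (16.7%, against 21.6% of all genes), and between female KO and female WT 3 passed (8.33%, against 11.5%). In WT 3 passed between the sexes (8.33%) and in KO 5 (13.9%). The 5 include Psd4, whose only call this was. It averaged 1 TPM or more only through male KO, so the filter favours that call. The 12 genes that passed in any of the comparisons were Slf2 and Sfxn3 near Pax2, Il1rn and Psd4 near Pax8, Itih2 near Gata3, Adamts14 and Pald1 near Pcbd1, Fxyd4, Bms1 and Zfp248 near Ret, Sgcd near Havcr1 and Mcm3 near Pkhd1.

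The neighbours of Pax8 and Pcbd1 gave the largest values in males. Il1rn, the interleukin 1 receptor antagonist, lies 69.1 kb from Pax8 and was at 22.6, 33.6 and 28.3 TPM in male WT and 74.4, 82.4 and 78.1 in male KO libraries, a log2 fold change of 1.46 (standard error 0.13, adjusted p = 0.000426, limma). Psd4, only 5.61 kb from Pax8, was at 2.34, 0.477 and 0.707 TPM in male WT and 2.41, 2.46 and 2.22 in male KO, and did not pass (adjusted p = 0.147). Adamts14, 103 kb from Pcbd1, was at 2.52, 2.22 and 2.82 TPM in male WT and 9.05, 9.24 and 8.26 in male KO, a log2 fold change of 1.49 (standard error 0.12, adjusted p = 0.000262). On the same scale the differences of Pax8 and Pcbd1 were 4.84 and 4.39.

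The identity of the cells was read from marker lists. Fibroblast genes, with collagen and vimentin RNA foremost, summed to 9087 to 10204 TPM in male WT, 11429 to 12126 in male KO, 7937 to 8124 in female WT and 9710 to 10044 in female KO libraries, and 9 of the 10 listed reached 1 TPM in every library. Lum, a proteoglycan, stayed under 1 TPM. The 9 kidney lineage genes summed to 77.6 to 83.4 TPM in male KO, 14.1 to 24.8 in male WT, 27.8 to 32.0 in female WT and 22.4 to 27.5 in female KO libraries. RNA of the kidney genes in male KO thus stood beside a fibroblast profile of much higher level.

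The epithelial markers summed to less in male KO than in male WT. Their sum was 8.89 to 10.6 TPM in male KO, 77.3 to 78.7 in male WT, 22.1 to 25.4 in female WT and 7.92 to 11.9 in female KO libraries, most of it Krt19. The epithelial keratin Krt19 fell in male KO from 67.2, 68.1 and 66.4 to 7.30, 8.17 and 6.94 TPM, a log2 fold change of -3.01 (standard error 0.07, adjusted p = 3.02e-06, limma). Cldn7 was at 0.604 to 1.63 TPM in male KO and at 0.259 to 0.911 in male WT, a log2 fold change of 0.48 that did not pass (standard error 0.28, adjusted p = 0.264). Cdh1, Krt8, Esrp1, Cldn3, Cldn4 and Grhl2 were under 1 TPM in all 12 libraries, and Epcam was at 0.29 to 0.44 TPM in male KO.

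**Figure D4:**
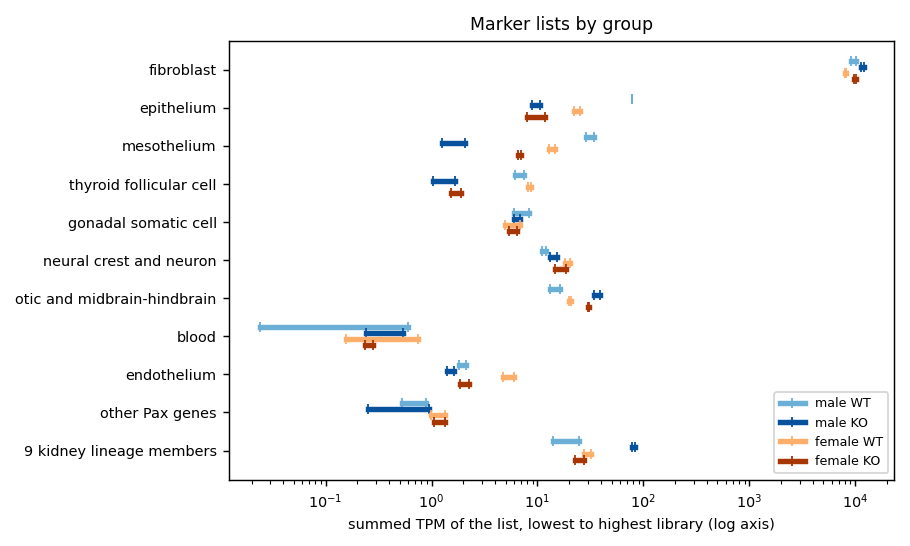
Summed TPM of each marker list and of the 9 kidney lineage genes (x axis, log scale), with a bar from the lowest to the highest library of each group. The fibroblast list lies at 7937 TPM or more in every group, the 9 genes are highest in male KO (77.6 to 83.4), and the epithelium and mesothelium lists are highest in male WT.

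Other tissues that use Pax8, Pax2, Ret or Gata3 were read in the same way. Of the thyroid genes Tg, Tshr, Duox2, Foxe1 and Nkx2-1 stayed under 1 TPM in all libraries. The sum was 1.03 to 1.67 TPM in male KO, 6.14 to 7.49 in male WT, 8.10 to 8.74 in female WT and 1.53 to 1.88 in female KO, carried by the iodide transporter Slc5a5, which fell in KO of both sexes. The mesothelium list, carried by Msln, was at 1.26 to 2.05 TPM in male KO and 28.7 to 34.3 in male WT. In females it was at 12.7 to 14.8 TPM in WT and 6.60 to 7.01 in KO. Bnc1 of that list was lower in male KO than in male WT. In females Bnc1 went the other way, with 0.163 to 0.209 TPM in WT and 0.900 to 1.29 in KO. The otic and midbrain-hindbrain list was at 34.5 to 38.7 TPM in male KO, 13.0 to 16.4 in male WT, 19.8 to 20.7 in female WT and 29.9 to 30.4 in female KO.

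Within that list Oc90 was at 0 in every library, and the homeobox gene En1 was higher in KO of both sexes, with 16.9 to 17.8 TPM in male KO and 20.3 to 20.9 in female KO. Eya4, a transcriptional cofactor of inner ear development, was at 15.1 to 16.7 TPM in male KO, with a log2 fold change of 1.30 in males (standard error 0.10, adjusted p = 0.000236, limma) and of -0.67 in females (standard error 0.10, adjusted p = 0.00779).

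Gonadal genes summed to 4.93 to 8.29 TPM over all libraries, neural crest and neuron genes to 11.1 to 20.1, mostly Tubb3, endothelial genes to 1.40 to 5.95, highest in female WT, and blood genes to no more than 0.752. Nr5a1, Sox10, Th, Cdh5 and Adgre1 of these lists were at or near 0, while some other members were not. Inha of the gonadal list was at 1.44 to 4.43 TPM over the 12 libraries. Star of that list was at 0.884 to 3.19 TPM. Kdr of the endothelial list was at 4.28 to 5.08 TPM in female WT. The part of any other cell type in the levels of the 9 genes was not tested.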

How the data were processed

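Polyadenylated RNA of 12 cultures was sequenced. The authors quantified reads with Salmon 1.10.1 against GRCm38, as named in the submitters' processing notes, and deposited TPM for 34866 genes. The read totals behind them are unknown, and no counting error can be given. Identifiers were matched to GENCODE symbols (99.4%, and 93.6% with the same version). The 9 genes, the 75 other kidney genes and the 10 marker lists were chosen with earlier results of these data known. A few genes are not reported here and were left out of these lists, the profile ranking and the counts of genes found in 1 group. Genes averaging 1 TPM or more over all libraries (12504) were tested with limma 3.58.1 (R 4.3.3, trended variance) on log2(TPM+1), since a count model needs counts. P-values were adjusted over all of them by Benjamini-Hochberg, at a threshold of 0.05, in fits of 6 libraries for each pair of groups and of 12 for the sex by genotype interaction. Fold changes on this scale understate those of low genes. The limma code was tested on simulated data. Named are, in the kidney list, the 5 called genes that changed most in each comparison, all genes called within 250 kb of a member, and the nearest 5 profiles of Pax8 and 3 of other members. Others were named after their values were seen. The labels do not say that replicate numbers mark pairs. RefSeq windows came from GRCm38.p6.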

Additional observations from a re-analysis of the deposited data

Results flagged for a closer look

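The change between KO and WT differed between males and females for 24 of the 46 other kidney genes tested, by the interaction term of limma over 12 libraries at an adjusted p under 0.05. Values are given for the 7 among the genes that changed most, leaving out those that passed the filter only through 1 group. As the male change minus the female change on the log2(TPM+1) scale, it was 3.31 for Cdh6, 2.80 for Wt1, 2.18 for Foxd1 and 0.86 for Lhx9. It was -3.25 for Aqp1, -1.95 for Bmp2 and -0.74 for Hoxd11. Some called genes outside the 7 had larger values than Lhx9 and Hoxd11, such as Eya1 (-1.86), Foxc1 (1.67) and Gfra1 (-1.58). Among the neighbours of the 9 genes the difference was 1.24 for Adamts14, near Pcbd1, and this was the only neighbour to pass.

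Pax8, Pcbd1 and the other 7 genes were not tested in this way, since they were chosen for their pattern. As group means, the male change minus the female change was 5.04 for Pax8, 4.67 for Pcbd1, 2.85 for Havcr1 and 2.25 for Pax2. It was 1.77 for Cdh16, 0.97 for Pkhd1, 0.88 for Gata3, -0.32 for Lhx1 and -1.80 for Ret. With 3 libraries per group, no test for libraries far from the others was run.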

How the results depend on the processing

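Without each library in turn, the number of other kidney genes called was 21 to 24 between male KO and male WT (26 with all), 13 to 16 in females (18), 14 to 18 between the WT sexes (19), 23 to 26 between the KO sexes (29) and 22 to 24 for the interaction (24). The replicate number as a block gave 24, 15, 16, 23 and 24 in the same order. Deviations of libraries with the same number correlated with a mean r between -0.009 and 0.017, so a pairing was not seen. Over all genes the block took the share called in females from 11.5% to 5.36%, and no filter on low values took that in males from 21.6% to 10.4%. Of 750 values of named kidney genes under the alternatives, 702 kept their direction and side of the threshold, 40 were no longer called, 8 were newly called and 0 changed direction. Of 288 recomputed differences of the 9 genes 14 changed sign and 23 moved by more than 1 SD, all with a pseudocount of 0.1. TPM carry no depth, so the precision of values near 0, such as those of Pkhd1, is unknown.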
